A study of Mus musculus with 6 samples.

Results

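The major histocompatibility complex (MHC) of the mouse was taken here by position alone, as every non-control probe of a DNA methylation array whose start lay between 34100000 and 36200000 on chromosome 17 of genome build mm9. That gave 954 of the 174638 probes of the array. Spots flagged for uneven pixels or outlying signal removed 2 of them. The other 952 all fell into regions, a region being a run of at least 3 probes whose starts were at most 1000 bp apart, and the MHC held 114 of the 21987 regions. A region of the MHC had a median of 8 probes (4 to 22) over a median of 1682 bp, and the median gap between neighbouring regions was 13.6 kb. The longest stretch with no region ran for 76.2 kb, between 34536218 and 34612385.

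The samples were liver DNA of mouse offspring at 32 weeks of age, on 3 arrays from offspring of dams fed a chromium-restricted diet and on 3 arrays from offspring of control-diet dams. The diet named is that of the mother, while the labels give no strain, sex or litter. The p-values therefore reflect the spread between these arrays alone, which may be technical. The labels give liver as the tissue but name fat in the extraction step, and an array of genomic DNA without gene names offers no expression marker against which to check the tissue. On each array, DNA pulled down with an antibody to methylated cytosine (the immunoprecipitated DNA, red dye) was read against input DNA of the same sample (green dye). All values below are log2 ratios of immunoprecipitated over input signal, centred so that the median probe of each array is 0. A value below 0 is thus a lower ratio than that of the median probe, not a measured absence of methylation.

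The MHC holds the genes with which cells show peptides to T cells. Class I molecules such as H2-K1 and H2-D1 are made by nearly all nucleated cells and present peptides from inside the cell, loaded with the help of the transporter Tap1 and the proteasome subunits Psmb8 and Psmb9. Class II molecules such as H2-Aa and H2-Eb1 present peptides taken up from outside and are made mainly by antigen-presenting cells, in liver by Kupffer cells and other non-parenchymal cells. The class III genes lie between the class II genes and class I genes such as H2-D1, while H2-K1 lies on the other side of class II. Class III includes complement genes, the cytokine gene Tnf and the heat shock genes Hspa1a and Hspa1b. DNA of whole tissue mixes all of these cell types, so that a change within a cell type and a change in its share of the tissue cannot be told apart.

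The antibody reads methylated cytosines, which in adult mouse tissue lie almost all in CpG pairs, so the number of CpGs in a stretch bounds what the assay can report there. The promoters of a class II gene and of a class I gene show how far this differs within the MHC. Both are the 250 bases before the gene's start on chromosome 17, minus strand, from RefSeq on build GRCm38.p6, written 5' to 3' with every CpG in capitals. For a listed gene with several starts, here and below, the most upstream was taken.
H2-Aa: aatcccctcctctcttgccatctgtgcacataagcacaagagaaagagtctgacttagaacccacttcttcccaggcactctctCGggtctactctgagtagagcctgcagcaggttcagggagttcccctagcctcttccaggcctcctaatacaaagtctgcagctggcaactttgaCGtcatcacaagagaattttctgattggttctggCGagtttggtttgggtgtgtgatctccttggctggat
H2-K1: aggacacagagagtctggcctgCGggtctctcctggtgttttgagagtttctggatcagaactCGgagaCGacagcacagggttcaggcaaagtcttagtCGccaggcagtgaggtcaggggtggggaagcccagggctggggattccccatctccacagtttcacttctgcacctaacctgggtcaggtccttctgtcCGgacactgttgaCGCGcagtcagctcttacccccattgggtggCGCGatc
The H2-Aa stretch has 3 CpGs and the H2-K1 stretch has 9. Of all 32851 promoters in the RefSeq table, 71% had at least as many as H2-Aa and 40.3% at least as many as H2-K1, and the median was 6. Of 49 listed genes of the MHC, 38 had a promoter in the table. The 8 class II promoters had a median of 2 CpGs, with 0 for H2-Eb1, a class II beta chain, and 27 for H2-DMa, a peptide-loading chaperone whose window overlaps that of Brd2, a chromatin reader transcribed the other way. The 4 promoters of antigen processing genes had 10 to 14 CpGs, and the windows of Tap1 and Psmb9, transcribed in opposite directions, largely overlap. The 10 class I promoters had 2 to 14 with a median of 7.5, the lowest for H2-Q2 and H2-T3 and the highest for H2-D1. The 9 class III promoters had 3 (Ager, a receptor for glycated proteins) to 18 (Ehmt2, a histone methyltransferase), and 7 promoters of non-immune genes of the interval had 7 (Ddr1, a collagen receptor) to 31 (Rxrb, a nuclear receptor). These letters are given for orientation alone: the array is laid out on mm9, coordinates were not converted between builds, and no region below is paired with a gene.

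The MHC probes were brighter than those of the rest of the array in both channels. The input signal, on the log2 scale and set against each array's median probe, was higher over MHC regions than over all other regions by 0.56, 0.55 and 0.56 on chromium-restricted arrays 1, 2 and 3, against 0.55, 0.57 and 0.61 on control arrays 1, 2 and 3. The immunoprecipitated signal was higher by 0.58, 0.60 and 0.61 on chromium-restricted arrays, against 0.59, 0.61 and 0.61 on control arrays. Over the 6 arrays the excess was 0.57 ± 0.023 for input and 0.60 ± 0.013 for immunoprecipitated DNA (SD, n = 6), each with p = 0.03125 in an exact sign-flip permutation test over arrays, the smallest p that 6 arrays allow. As all 6 arrays carry the same probes, a sign-flip p, here and below, shows only that a sign repeats over arrays. It does not measure how probes or stretches of the genome vary. The measures of input and, below, of spread against the rest were chosen after seeing the data. Among probes well above background for both dyes on every array the input excess was 0.18, and against the other 952 regions of chromosome 17 it was 0.49.

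A larger share of probes was well above background in both dyes in the MHC than on the array at large. Of its 952 probes, 754 (79.2%) were called well above background by the scanner software for both dyes on each of the 6 arrays, against 67.5% of all probes and 68.9% of those elsewhere on chromosome 17. In 109 of the 114 MHC regions (95.6%) at least 50% of the probes did so, against 83.1% of all regions, and no MHC spot was saturated. A probe with bright input but little immunoprecipitated DNA fails this call. Results for the probes that pass it, here and below, thus rest on a choice that is not independent of the ratio. Depth differed between arrays: the median probe's input signal after background subtraction was 53.1, 83.9 and 46.1 units on chromium-restricted arrays, against 98.4, 38.1 and 60.5 on control arrays. The order of the arrays by this signal was not that of the groups. The mean ratios given below, of the MHC and of all other regions, rose from array to array as this signal fell. For the MHC the mean ran from -0.18 on control array 1 to -0.089 on control array 2, and the cause was not tested.

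**Figure D1:**
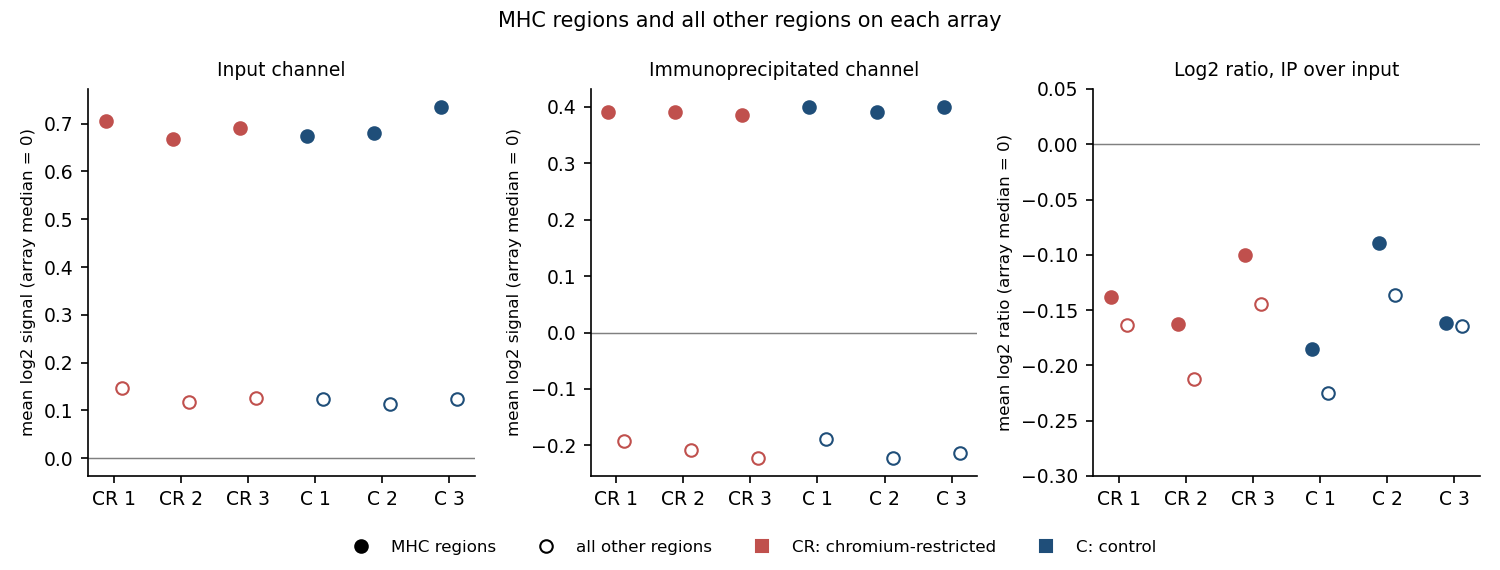
MHC regions and all other regions on each array, with chromium-restricted (CR) arrays to the left of control (C) arrays. The panels give the mean input signal, the mean immunoprecipitated signal and the mean ratio (y axes, log2, array median at 0), and on all 6 arrays both signals of the MHC (filled) lie above those of the other regions (open) while the ratios lie close together.

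The ratio itself was close to that of the rest of the genome. The mean over the 114 MHC regions was -0.14, -0.16 and -0.10 on chromium-restricted arrays 1, 2 and 3, against -0.18, -0.089 and -0.16 on control arrays 1, 2 and 3. The mean over all other regions was -0.16, -0.21 and -0.14 on chromium-restricted arrays, against -0.23, -0.14 and -0.16 on control arrays. By the mean, the MHC thus lay above the rest on all 6 arrays, by 0.035 ± 0.018 (SD, n = 6, exact sign-flip permutation p = 0.03125). By the median of region levels averaged over arrays it lay lower, at -0.15 against -0.11 for all regions. Of the MHC regions 34.2% were above 0, against 40.9% of all regions. The sign of the difference in means also turned with the choice of probes: with the probes well above background alone, the MHC mean lay below that of the rest, at -0.081 (exact sign-flip permutation p = 0.03125). That choice drops probes with a weak immunoprecipitated signal, and it kept 79.2% of MHC probes against 67.5% of all probes. The part of this unequal loss in the turn of sign was not tested. Against other regions of chromosome 17 the difference was 0.011, above 0 on 5 of 6 arrays (exact sign-flip permutation p = 0.1875).

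The MHC differed from the rest of the array in a narrower spread of levels. The standard deviation over MHC regions was 0.45, 0.46 and 0.45 on chromium-restricted arrays, against 0.46, 0.46 and 0.45 on control arrays. Over all other regions it was 0.61, 0.64 and 0.57 on chromium-restricted arrays, against 0.65, 0.57 and 0.60 on control arrays. The difference was -0.15 ± 0.031 (SD, n = 6), below 0 on 6 of 6 arrays (exact sign-flip permutation p = 0.03125). It was -0.094 with the probes well above background alone, -0.089 against the rest of chromosome 17 and -0.062 after normexp background correction, each below 0 on every array with the same exact permutation p of 0.03125. The MHC also had the higher input signal described above, and its part in this result was not tested.

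The distributions differed in the low tail, described here without a test. Averaged over the 6 arrays, MHC regions ran between -1.19 and 1.06 with a median of -0.15, while all regions ran between -4.98 and 1.88 with a median of -0.11. A level under -1 was found in 2 of 114 MHC regions (1.75%), against 6.33% of all regions and 6.09% of those elsewhere on chromosome 17. A level over 1 was found in 1 MHC region (0.877%), against 0.368% of all regions. Most of the MHC was close to the array median: 85 regions (74.6%) lay within 0.5 of 0, against 69.8% of all regions. Across the array, regions under -1 had a median input level of 0.56, against 0.16 in the other regions, and 53.9% of their probes were well above background, against 68.3%.

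**Figure D2:**
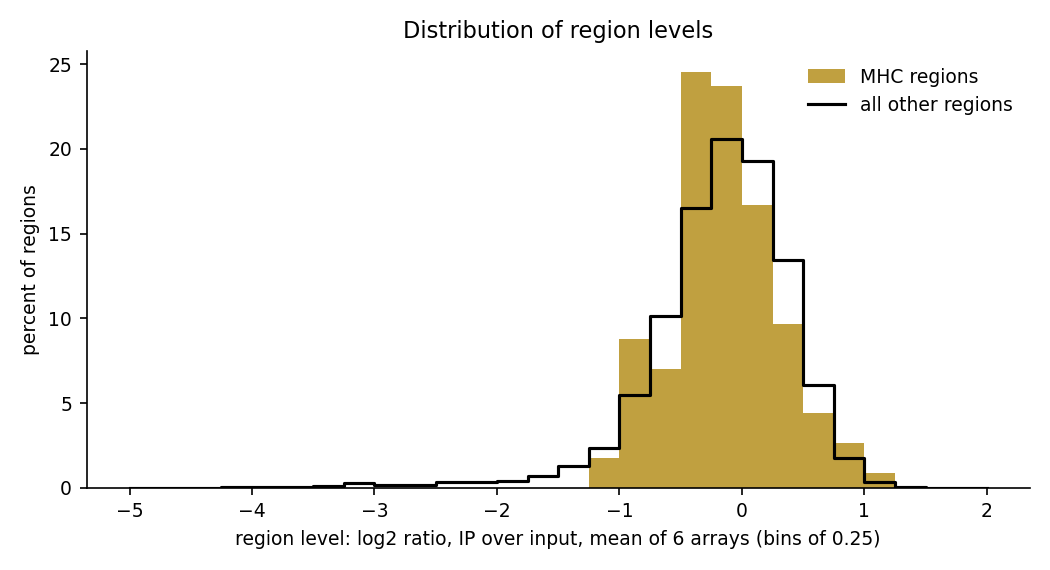
Percent of regions (y axis) by level (x axis, log2 ratio of immunoprecipitated over input DNA, mean of 6 arrays, bins of 0.25) for the 114 MHC regions (bars) and all other regions (line). The MHC bars stop at -1.19 on the left, where 6.33% of all regions lie under -1.

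Along the MHC, levels changed from stretch to stretch with no single direction. Of the windows of 100 kb with at least 3 regions, 19 lay in the MHC, and another 2 of its windows held fewer. The highest was the window from 34300001, with 0.27, 0.18 and 0.31 on chromium-restricted arrays, against 0.19, 0.33 and 0.20 on control arrays over 5 regions. Next came the window from 35600001, with a mean of 0.22 ± 0.051 in chromium-restricted and 0.19 ± 0.029 in control samples, and the window from 34400001, with 0.15 ± 0.030 and 0.19 ± 0.082 in the same order (SD, n = 3 each). Their ranges over arrays overlapped, so their order is not settled.

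The lowest window, from 35500001, had -0.53, -0.58 and -0.53 on chromium-restricted arrays, against -0.61, -0.47 and -0.58 on control arrays. It lay directly beside the high window from 35600001, and every array put it lower by more than the spread between arrays. The windows from 35800001 and 34700001 followed, with -0.52 ± 0.021 and -0.40 ± 0.074 in chromium-restricted samples, against -0.48 ± 0.071 and -0.44 ± 0.097 in control samples (SD, n = 3 each). The high and low windows kept their sides of 0 on all 6 arrays, but the depth of the low ones depended on the background treatment. The window from 35500001 had -0.13 after normexp, -0.15 with probes well above background alone and -0.23 in the authors' deposited table, and that from 34700001 had -0.080, -0.16 and -0.10 under the same settings. The window from 35800001 had -0.19 after normexp, where it was lower than the window from 35500001. Among the high windows, that from 34400001 had 0.047 with probes well above background alone.

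**Figure D3:**
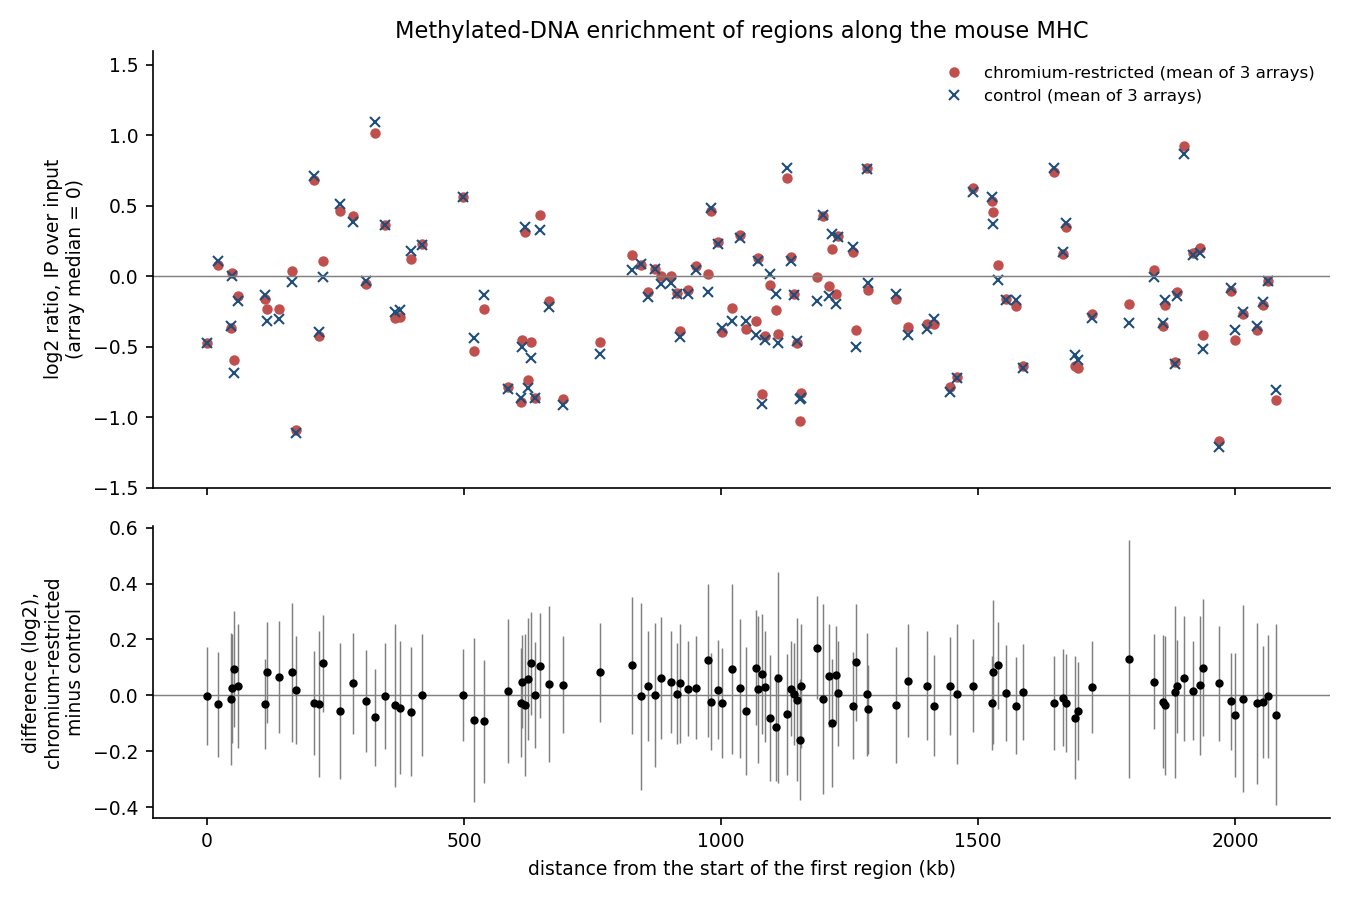
Level of the 114 MHC regions (upper panel, log2 ratio, mean of 3 arrays for chromium-restricted and for control samples) and their difference, chromium-restricted minus control (lower panel, log2), by distance from the first region in kb. Levels run between -1.19 and 1.06, and the differences stay between -0.16 and 0.17.

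The highest region of the MHC was chr17:34441640-34443089, with 7 probes. Its level was 0.98, 1.06 and 1.02 on chromium-restricted arrays, against 1.12, 1.01 and 1.15 on control arrays. All 7 of its probes were well above background on every array. The region chr17:36015621-36017014 followed with 0.85, 0.98 and 0.95 on chromium-restricted arrays, against 1.04, 0.84 and 0.72 on control arrays. The groups overlapped in both regions, and only control array 1 of the second lay above the lowest array of the first. In the second region 1 of 5 probes, chr17:36016754-36016798 at 2.38, was not well above background on all arrays. Without it the region had 0.53, and after normexp 0.47, so its second place did not hold.

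The other regions among the 8 highest were spread over the interval. They were chr17:35398830-35400429 at 0.76, chr17:35763095-35764688 at 0.75, chr17:35244058-35245357 at 0.73, chr17:34323209-34325496 at 0.69, chr17:35605803-35607336 at 0.61 and chr17:34612385-34614067 at 0.56, each a mean over 6 arrays. Neighbours in this order overlapped over the 6 arrays, and the lowest value of any array in these 6 regions was 0.53. With probes well above background alone, chr17:35605803-35607336 had 0.97, chr17:35763095-35764688 had 0.52 and chr17:34323209-34325496 had 0.46. The highest region given above stayed first of the 8 there, at 1.06, after normexp, at 1.03, and in the authors' deposited table, at 1.31. With the median over probes as a region's level it had 0.84, below chr17:35605803-35607336 at 1.22 and chr17:35244058-35245357 at 1.08, among others. The order was thus not settled, and the first place too depended on how probes were summarised.

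The lowest region was chr17:36082878-36084451, with 5 probes. Its level was -1.25, -1.01 and -1.24 on chromium-restricted arrays, against -1.15, -1.26 and -1.22 on control arrays. The region chr17:34288870-34290448 had -1.05, -1.17 and -1.06 on chromium-restricted arrays, against -1.16, -0.99 and -1.18 on control arrays. These were the 2 regions under -1, and their arrays overlapped, as did the groups within each. Both depended on the settings: the first had 0.079 when runs were split at gaps of 500 bp, which removes its first probe, and the second had -0.39 after normexp and -0.50 with probes well above background alone.

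The 6 regions above them lay between -0.95 and -0.85. They were chr17:35268198-35269931 at -0.95, chr17:34806819-34807967 at -0.89, chr17:34725456-34727137 at -0.88, chr17:35194956-35196352 at -0.87, chr17:34752428-34753949 at -0.86 and chr17:35270986-35272985 at -0.85. With probes well above background alone, chr17:35194956-35196352 turned to 0.19, chr17:34806819-34807967 had -0.19 and chr17:35268198-35269931 had -0.33, while the other 3 had between -0.78 and -0.58. A place among the lowest regions is thus uncertain where it rests on probes not well above background. That choice also drops probes for a weak immunoprecipitated signal, which itself lowers the ratio, so a rise of low regions under it is partly built in. The probes dropped from chr17:35194956-35196352 had input signals of -1.07 and 1.18 relative to the array median (log2). Those dropped from chr17:35268198-35269931 had -3.09 and 1.38. Among the 8 lowest regions, chr17:35268198-35269931 and chr17:35270986-35272985 lay side by side. At the borders of the interval, the first region, chr17:34115239-34118887, had -0.47 and the last, chr17:36194817-36196458, had -0.84. Neighbouring regions were on the whole little more alike than any pair: the median difference in level was 0.39 for the 113 neighbouring pairs, 0.39 for the 26 pairs under 5 kb apart and 0.42 for all 6441 pairs.

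Within a region, single probes differed far more than region means did from each other. The measures are unlike, since a mean over a median of 8 probes varies less than a single probe. The standard deviation of probe levels within MHC regions was 1.18, and 1.21 within all regions, while the median range of probes in a region was 3.26 in both. That of the MHC region means was 0.44 in standard deviation. How far this spread comes from which probes a region holds was not tested. Probes of the MHC ran between -6.25 and 2.60. In 58 of the 114 MHC regions (50.9%) a probe under -1 stood beside a probe over 1, against 58.9% of all regions. A region's mean was thus an average over probes that read high and probes that read low.

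The lowest region had the widest range, 7.70. Its 5 probes read -6.25, -0.096, 1.44, 0.36 and -1.40 in order along the chromosome, as means of 6 arrays. The first, chr17:36082878-36082934, had -6.42, -6.33 and -5.67 on chromium-restricted arrays, against -6.87, -5.89 and -6.34 on control arrays, with an input signal of 4.84 and an immunoprecipitated signal of -1.58 relative to the array median (log2). That single probe set the place of the region among the lowest. The 8 probes of chr17:34175082-34176738 read 0.61, 1.05, -0.41, -4.71, -0.75, -0.76, 1.62 and 2.07, and the 7 of chr17:35194956-35196352 read -1.76, -5.27, 0.85, -0.72, 0.39, 0.64 and -0.22. In each of the 3 regions 1 probe read far below its neighbours on all 6 arrays. The lowest probe of the first region was well above background for both dyes on every array. Those of the other regions, at -4.71 and -5.27, were not, with immunoprecipitated signals of -2.70 and -4.25 relative to the array median (log2), so their exact ratios and the ranges of these regions are not firmly measured.

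Arrays of both diets gave similar MHC profiles. Over the 114 regions the Pearson correlation between arrays was 0.891 (control arrays 1 and 2) to 0.977 (chromium-restricted array 2 and control array 1), given as a description, since all arrays carry the same probes. Every array of a group sat at the same position of its slide, position 2 for chromium-restricted and position 4 for control samples, so slide position and diet cannot be told apart. Each of 3 scans held 1 array of each group, and differences within scans are given below.

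The mean level of the MHC differed between the diets by less than the spread between arrays. It was -0.13 ± 0.032 in chromium-restricted samples and -0.15 ± 0.050 in control samples (SD, n = 3 each), a difference of 0.012 (two-sided exact permutation p = 0.8, where 3 against 3 arrays cannot go below 0.1). Within scans the difference was 0.047, -0.074 and 0.062, with both signs, and it turned to -0.0054 without chromium-restricted array 3 and to -0.0083 without control array 1. In each scan the array with the lower median input signal had the higher MHC mean. The spread over regions was 0.450 ± 0.0050 in chromium-restricted and 0.457 ± 0.0034 in control samples, a difference of -0.0060 (exact permutation p = 0.2).

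No window of the MHC passed the test either. Of the 19 windows, 0 had an adjusted p under 0.05 in limma and 0 an unadjusted p under 0.05, where 0% and 0.354% of all 2543 windows did. Differences ran between -0.061 and 0.048, and the 95% interval of every MHC window stayed within 0.24 of 0. The window with the smallest p was that from 36000001 (-0.066 ± 0.041 in chromium-restricted and -0.11 ± 0.022 in control samples, SD, n = 3 each). The windows from 34200001 and 34900001 followed, with differences of 0.044 and 0.040. The 95% interval of each of the 3 included 0.

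Among single regions, 0 of the 114 passed an adjusted p of 0.05 in limma, where 0% of all regions did. At an unadjusted p under 0.05 the MHC again had 0, and all regions of the array 0.896%. That share of the array is itself below 0.05, the fraction such a threshold is set to call when groups do not differ. The cause was not tested. The chromium-restricted arrays all lay to one side of the control arrays in 5 MHC regions (4.39%), against 4.44% of all regions. They were higher in 3 (2.63%, against 2.49% of all regions) and lower in 2 (1.75%, against 1.95%), so the MHC shares were near the background. Differences ran between -0.16 and 0.17 with a median of 0.0081, and 66 of 114 were above 0 (57.9%), against 52.5% of all regions.

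The arrays nevertheless set limits on what could have been missed. The 95% interval of a region's difference reached a median of 0.20 to each side, against 0.22 over all regions, as the pooled SD between arrays was 0.097 against 0.117. The median MHC region was bounded to within 0.25 of 0 on the log2 scale. The widest bound was 0.56, in chr17:35908162-35909471.

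The region with the smallest p was chr17:35301326-35302893. It had -0.011, 0.0076 and -0.0048 on chromium-restricted arrays, against -0.30, -0.093 and -0.13 on control arrays. All chromium-restricted arrays lay above all control arrays, by 0.17 (SE 0.081, 95% interval -0.014 to 0.36, adjusted p = 1 in limma, as for every MHC region), and 6 of its 7 probes were higher. Within scans the difference was 0.29, 0.10 and 0.12, and without control array 1, the lowest, it was 0.11.

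The second, chr17:35268198-35269931, is among the lowest regions given above. It had -0.97, -1.01 and -1.11 on chromium-restricted arrays, against -0.95, -0.70 and -0.95 on control arrays. The groups did not overlap, with a difference of -0.16 (SE 0.094, 95% interval -0.37 to 0.058). Within scans the difference was -0.013, -0.30 and -0.16, and without control array 2 it was -0.074. Only 4 of its 7 probes were lower in chromium-restricted samples.

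In chr17:35652776-35654955 the values were 0.081, 0.076 and 0.085 on chromium-restricted arrays, against -0.021, -0.050 and -0.0066 on control arrays. In chr17:34340124-34341858 they were 0.13, 0.070 and 0.13 on chromium-restricted arrays, against 0.036, -0.096 and 0.040 on control arrays. Both differed by 0.11 without overlap, with 95% intervals of -0.049 to 0.26 and -0.058 to 0.29, and 9 of 11 and 5 of 7 probes were higher. In the second of these the difference was 0.070 without control array 2.

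The other regions among the 8 with the smallest p had overlapping groups. They were chr17:34744674-34746387, chr17:34763558-34766976 and chr17:35377393-35380099, with differences of 0.11, 0.11 and 0.12, and chr17:35222044-35223735 with -0.11. The difference in chr17:35377393-35380099 was 0.032 without chromium-restricted array 1, that in chr17:34763558-34766976 was 0.063 without control array 1 and 0.040 with probes well above background alone, and that in chr17:35222044-35223735 was -0.047 without control array 2 and -0.012 in the authors' deposited table. The difference in chr17:34744674-34746387 was 0.040 with probes well above background alone. The fifth region without overlap, chr17:35401433-35403205, named here because of that, had -0.13, -0.070 and -0.083 on chromium-restricted arrays, against -0.058, -0.020 and -0.056 on control arrays (difference -0.051, 95% interval -0.21 to 0.11).

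**Figure D4:**
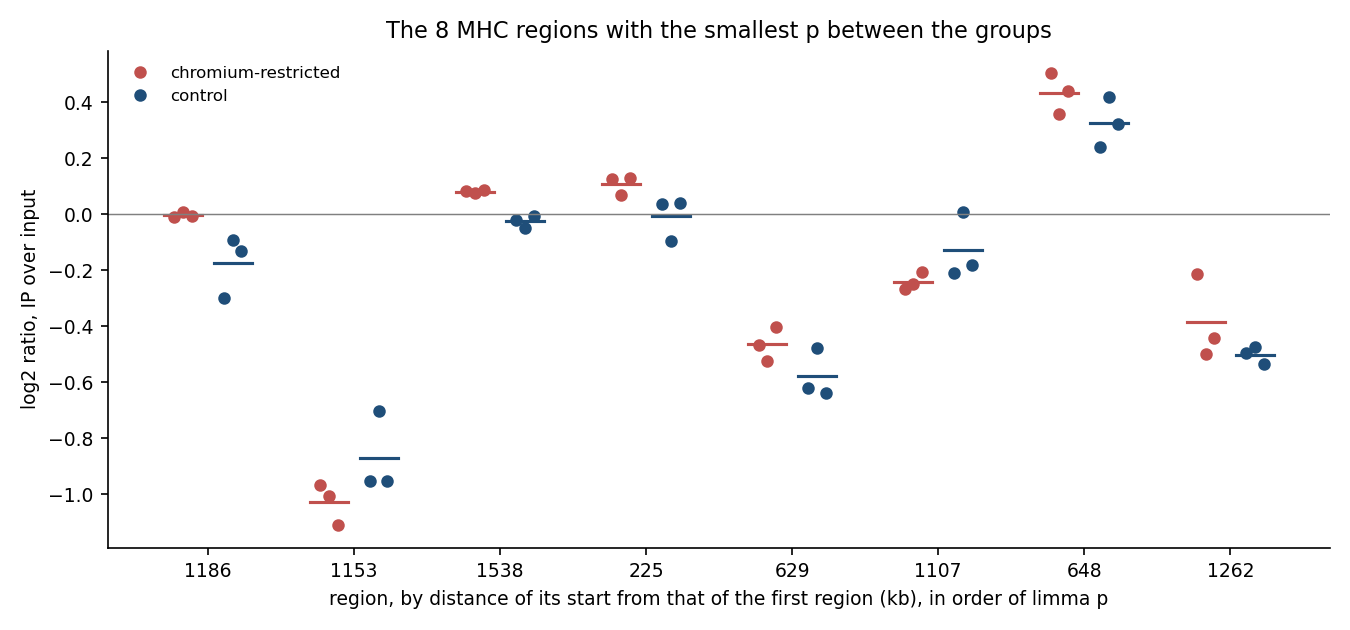
Log2 ratio of immunoprecipitated over input DNA (y axis) on each array, with group means as lines, in the 8 MHC regions with the smallest limma p, named by their distance from the first region in kb (x axis). Chromium-restricted and control arrays stand apart without overlap in the 4 regions at the left, by 0.17, -0.16, 0.11 and 0.11.

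Of the 952 single probes, 0 passed an adjusted p of 0.05 in limma, where 0% of all probes did. An unadjusted p under 0.05 was found for 3 (0.315%), against 1.3% of all probes, and the groups did not overlap in 42 (4.41%, 21 in each direction), against 4.27%. All 3 probes were lower in chromium-restricted samples, and all lay within 12083 bp, between 35259683 and 35271765, a fact seen only after their values were known. Of the 21 MHC probes in that span, 15 were lower in chromium-restricted samples, among them the 3 that set the span. All chromium-restricted arrays lay below all control arrays in 3 probes of the span, and these were the same 3. The share of lower probes over the whole array was not counted.

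The first of the 3, chr17:35269369-35269421, belongs to the second of the regions above. It had -0.80, -0.46 and -1.47 on chromium-restricted arrays, against 0.064, 0.19 and -0.37 on control arrays, a difference of -0.87 (SE 0.29, adjusted p = 1 in limma, as for every MHC probe). Without chromium-restricted array 3, the lowest, it was -0.59, and after normexp it was -0.33.

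The second, chr17:35259683-35259736, had -2.12, -2.27 and -2.43 on chromium-restricted arrays, against -1.77, -1.39 and -1.97 on control arrays, a difference of -0.56. The third, chr17:35271720-35271765, had -0.68, -0.61 and -0.74 on chromium-restricted arrays, against -0.49, -0.21 and -0.24 on control arrays, a difference of -0.36. Neither of these was well above background on all 6 arrays, and after normexp their differences were -0.14 and -0.023. The next probes by p were both higher in chromium-restricted samples, by 0.38 in chr17:34746334-34746387 and by 0.31 in chr17:36116603-36116647. In chr17:36116603-36116647 the values were 0.71, 0.74 and 0.69 on chromium-restricted arrays, against 0.32, 0.47 and 0.42 on control arrays.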

How the data were processed

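The members and the gene lists were chosen with earlier results of these data known. Agilent Feature Extraction 11.0.1.1 read the scans, per the file headers. The deposited processed signals are intensity values, background-subtracted and dye-normalized by a linear factor, per the file headers. A log10 ratio per spot and a p-value for it are also deposited and were used in no test. The authors' own normalized ratios, in a table of the series, were taken as log2 for an alternative. Their log base and method are not given in the sources used here.

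The log2 ratio of red over green processed signal was centred on each array's median over unflagged probes that are not controls, with no loess or quantile step. Centring removes a gain or loss shared by all probes. Regions, probes and windows of the whole array were fitted with limma 3.58.1 (R 4.3.3, data.table version 1.17.8, lmFit and eBayes, group alone) with Benjamini-Hochberg adjustment, and scripts were tested on simulated data. Values with 1 number per array were compared by exact permutation. The number of arrays limits the precision. Probe positions are the design's, on mm9 per the submitters' processing notes. Sequences are RefSeq's. No correction for GC content was run. Named regions were the 8 with the smallest p, the 8 highest and 8 lowest, the 3 widest, the first and the last. Named probes were the 5 with the smallest p, and named windows the 3 highest, the 3 lowest and the 3 with the smallest p. The rule also named genes, which was not applied as no table pairs these probes with genes. Other probes were named for their place in such a region. Normexp (offset 50) was planned on mean spot signals and run on median ones, the ones in the files. Python 3.11.15 with matplotlib 3.10.9 drew the figures.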

Additional observations from a re-analysis of the deposited data

How the results depend on the processing

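No MHC region, probe or window passed an adjusted p of 0.05 in limma under any of 15, 12 and 15 alternatives, and the differences of the named regions and probes kept their direction wherever a value was had. Their sizes did not hold: after normexp the 5 named probes had -0.33, -0.14, -0.023, 0.14 and 0.13, against -0.87, -0.56, -0.36, 0.38 and 0.31, and 3 of them were not tested with probes well above background alone. Of the levels of named regions and windows, 229 of 309 values over all settings stayed within 1 SD between arrays and 80 moved further. All that moved did so under normexp, the authors' table, probes well above background alone, region medians or runs split at 500 bp. Under each of these but the split, most levels moved. None moved on keeping flagged spots, on asking for at least 5 probes or on leaving single arrays out, which keep the probe values. At an unadjusted p under 0.05 the region count was 1 with normexp, with the authors' table (both times chr17:35301326-35302893), on keeping flagged spots (chr17:35088919-35090554) and on taking region medians (chr17:35268198-35269931), and 0 to 1 when single arrays were left out. The probe count was 1 with normexp, 7 with the authors' table and 8 with probes well above background alone, and 2 to 11 when single arrays were left out (11 without control array 2). Regions without overlap numbered 8 in the authors' table and 8 to 20 when single arrays were left out, fewer arrays being easier to separate. Under the alternatives regions and probes were counted for the MHC alone. These counts, and those of low and high levels below, thus cannot be set against the share over the array. The difference in the MHC mean was -0.0083 to 0.040 when single arrays were left out. The difference in spread was -0.0085 to -0.0022 over 14 alternatives. The level against the rest of the array was -0.081 with probes well above background alone, 0.018 over single probes, 0.011 against chromosome 17, 0.036 with flagged spots kept and 0.025 with at least 5 probes per region (exact sign-flip permutation p = 0.03125, 0.09375, 0.1875, 0.0625 and 0.0625). It was 0.15 in the authors' table and 0.088 for region medians. With single arrays left out it was 0.032 to 0.042, the spread against the rest -0.16 to -0.15, and the input excess 0.56 to 0.57, with exact permutation p = 0.0625, the smallest that 5 arrays allow. These measures of spread and input were chosen after seeing the data. Regions under -1 numbered 0 at a threshold of -1.5, with normexp, with the authors' table and with region medians, and 1 with probes well above background alone. Regions over 1 numbered 0 at a threshold of 1.5, 2 in the authors' table and 3 for region medians. The level of chr17:35268198-35269931 was -0.48 with normexp and -0.33 with probes well above background alone, and its difference was -0.48 for region medians, -0.030 with normexp and -0.046 in the authors' table. The causes were not tested. Replicate numbers did not pair the samples (correlations of deviations 0.145, -0.591 and 0.197). With the replicate number, which is also the scan, as a block, 0 regions, 0 windows and 3 probes had an unadjusted p under 0.05, and the difference in the MHC mean kept 0.012 (exact permutation p = 1). A block cannot change a level. Windows had 0 at an unadjusted p under 0.05 in all 15.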
